A study of Mus musculus with 19 samples.

Results

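A set of 10 genes of brain endothelial cells and of the blood-brain barrier was followed in the left prelimbic cortex of mice. They were taken by name from the gene count table: Cldn5, Ocln, Pecam1, Flt1, Kdr, Tek, Slco1a4, Abcb1a, Slc2a1 and Mfsd2a. All 10 were among the 20938 genes of the table, and all 10 passed the filter on low counts that left 16417 genes for testing. RNA was sequenced in 19 libraries from 4 groups, whose sizes match the numbers of mice in the series' design text. Mice of the SCZ group (n = 4) received MK-801, which blocks NMDA-type glutamate receptors and is given to model schizophrenia, at 0.2 mg/kg intraperitoneally each day for 2 weeks, and mice of the Control group (n = 6) received saline in the same way. Mice of the SCZ+c-MSST (n = 4) and Control+c-MSST (n = 5) groups had MK-801 or saline and also c-MSST. There, iron oxide nanoparticles (ferumoxytol) were given as a single stereotactic injection into that area, and the awake mice were then exposed to a pulsed magnetic field. Per the series' design text, tissue was taken 3 days after surgery. The labels give no strain, sex, age or batch. They do not say whether mice without c-MSST had surgery, so c-MSST, the injection and the surgery cannot be told apart in these comparisons. The design asks what the drug and the stimulation, alone and combined, change in this cortical area.

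Brain capillaries are lined by endothelial cells that are sealed to each other by tight junctions and that carry nutrients in and drugs and metabolites out through dedicated transporters. Vascular endothelial growth factor, angiopoietins and Wnt ligands act on receptors of these cells, and they control vessel growth and the upkeep of the barrier. Whole tissue was sequenced, so fewer endothelial cells and less RNA of a gene per cell cannot be told apart.

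Promoter sequences are shown for 4 of the 6 members that had an unadjusted p under 0.05 by edgeR in SCZ against Control, the 2 that were lower (Slc2a1 and Mfsd2a) and 2 that were higher (Flt1 and Slco1a4). The windows end at the base before the RefSeq start of the gene (GRCm38.p6, 5′ to 3′ on the gene's strand), except that of Slc2a1, whose last 4 bases are left out. They lie at chr4:119108495-119108740 (plus strand), chr4:122961189-122961438 (minus), chr5:147726012-147726261 (minus) and chr6:141856221-141856470 (minus). Capitals mark the letters ACGTG, the core of the element bound by hypoxia-inducible factors, and AGGAAG or its reverse complement CTTCCT, letters found in many binding sites of the ETS factors active in endothelium.
Slc2a1: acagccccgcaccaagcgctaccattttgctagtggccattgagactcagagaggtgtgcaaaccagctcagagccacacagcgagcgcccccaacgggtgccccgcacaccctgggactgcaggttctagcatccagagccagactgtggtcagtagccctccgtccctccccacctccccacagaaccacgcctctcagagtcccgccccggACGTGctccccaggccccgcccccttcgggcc
Mfsd2a: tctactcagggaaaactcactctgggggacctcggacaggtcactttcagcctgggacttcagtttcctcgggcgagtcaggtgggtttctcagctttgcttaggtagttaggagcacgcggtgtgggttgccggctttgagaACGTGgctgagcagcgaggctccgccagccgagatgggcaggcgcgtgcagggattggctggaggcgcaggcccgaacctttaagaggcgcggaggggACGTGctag
Flt1: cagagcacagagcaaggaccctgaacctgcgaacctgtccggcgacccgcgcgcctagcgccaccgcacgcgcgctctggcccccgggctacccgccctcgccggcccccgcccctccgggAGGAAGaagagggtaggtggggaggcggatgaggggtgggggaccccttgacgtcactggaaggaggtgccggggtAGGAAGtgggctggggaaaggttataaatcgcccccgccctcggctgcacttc
Slco1a4: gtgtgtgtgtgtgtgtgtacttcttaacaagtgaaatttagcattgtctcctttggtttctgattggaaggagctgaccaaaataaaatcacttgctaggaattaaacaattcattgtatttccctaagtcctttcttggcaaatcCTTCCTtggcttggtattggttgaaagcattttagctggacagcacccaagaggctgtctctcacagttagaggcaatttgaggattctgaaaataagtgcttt
Of the 10 members, 9 had an entry in the RefSeq promoter table, and Pecam1 had none. Both strands were searched over 250 bases before each start. The letters ACGTG or CACGT occurred in 16.6% of the 32851 windows of all genes and in those of 2 of 9 members, Slc2a1 (first base 36 bases before the RefSeq start, across the start of the GENCODE gene, which lies upstream of the RefSeq one) and Mfsd2a (107 and 9 bases before it). The letters AGGAAG or CTTCCT occurred in 29.5% of all windows and in those of 3 of 9 members, Flt1, Slco1a4 and Abcb1a. The searched window of Abcb1a, chr5:8566841-8567090, ends before a RefSeq start that lies far upstream of the GENCODE gene whose position is given for it here. The longer ETS motif CCGGAAG or CTTCCGG was in 0 of 9 member windows and in 6.91% of all windows. The motifs CTTTGAT or ATCAAAG, of the factors TCF and LEF at the end of the Wnt pathway, were in 0 of 9 and in 3.21%. Only Flt1 among the members had TATAAA or TTTATA, found in 12.4% of all windows. GGGCGG or CCGCCC, letters bound by Sp factors, stood in 5 of 9 member windows and 32.7% of all windows. These are matches of letters and not measured binding.

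Levels across genes were compared in the deposited FPKM values, which are scaled to gene length. Flt1 was the highest at 51.3 ± 7.34 FPKM (SD, n = 19), from 38.6 to 62.4 over the 19 libraries, and its range lay above that of every other member. Slc2a1 followed at 14.7 ± 2.11 FPKM (SD, n = 19), from 10.99 to 17.7, and Slco1a4 at 9.13 ± 1.64 FPKM (SD, n = 19), from 6.501 to 11.8. Pecam1, Tek and Abcb1a had close means of 8.31, 7.78 and 7.72 FPKM. Cldn5 stood at 6.61, Ocln at 6.304 and Mfsd2a at 4.44 FPKM, and Kdr was the lowest at 2.68 ± 0.431 FPKM (SD, n = 19), from 2.03 to 3.65. From Slc2a1 downwards, each gene's range overlapped that of the next in this order. All later levels of single genes are counts scaled to library size (CPM) with the TMM normalization of edgeR. They compare libraries for 1 gene and do not compare genes. Sums over marker lists are scaled to total counts alone, without TMM factors. Flt1 and Slc2a1 had close means of 97.1 and 97.4 CPM, with merged exons of 13504 and 3506 bases in GENCODE M21. Scaling to these lengths would put Flt1 below Slc2a1, so the deposited FPKM do not follow them. The order of genes by FPKM is therefore uncertain. In CPM the coefficient of variation over the 19 libraries ran from 8.09% for Pecam1 and 8.12% for Tek to 17.3% for Cldn5 and 20.1% for Ocln. Counts behind each value ran from 302 for Ocln to 9176 for Flt1. The plot of levels by group shows every library.

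**Figure D1:**
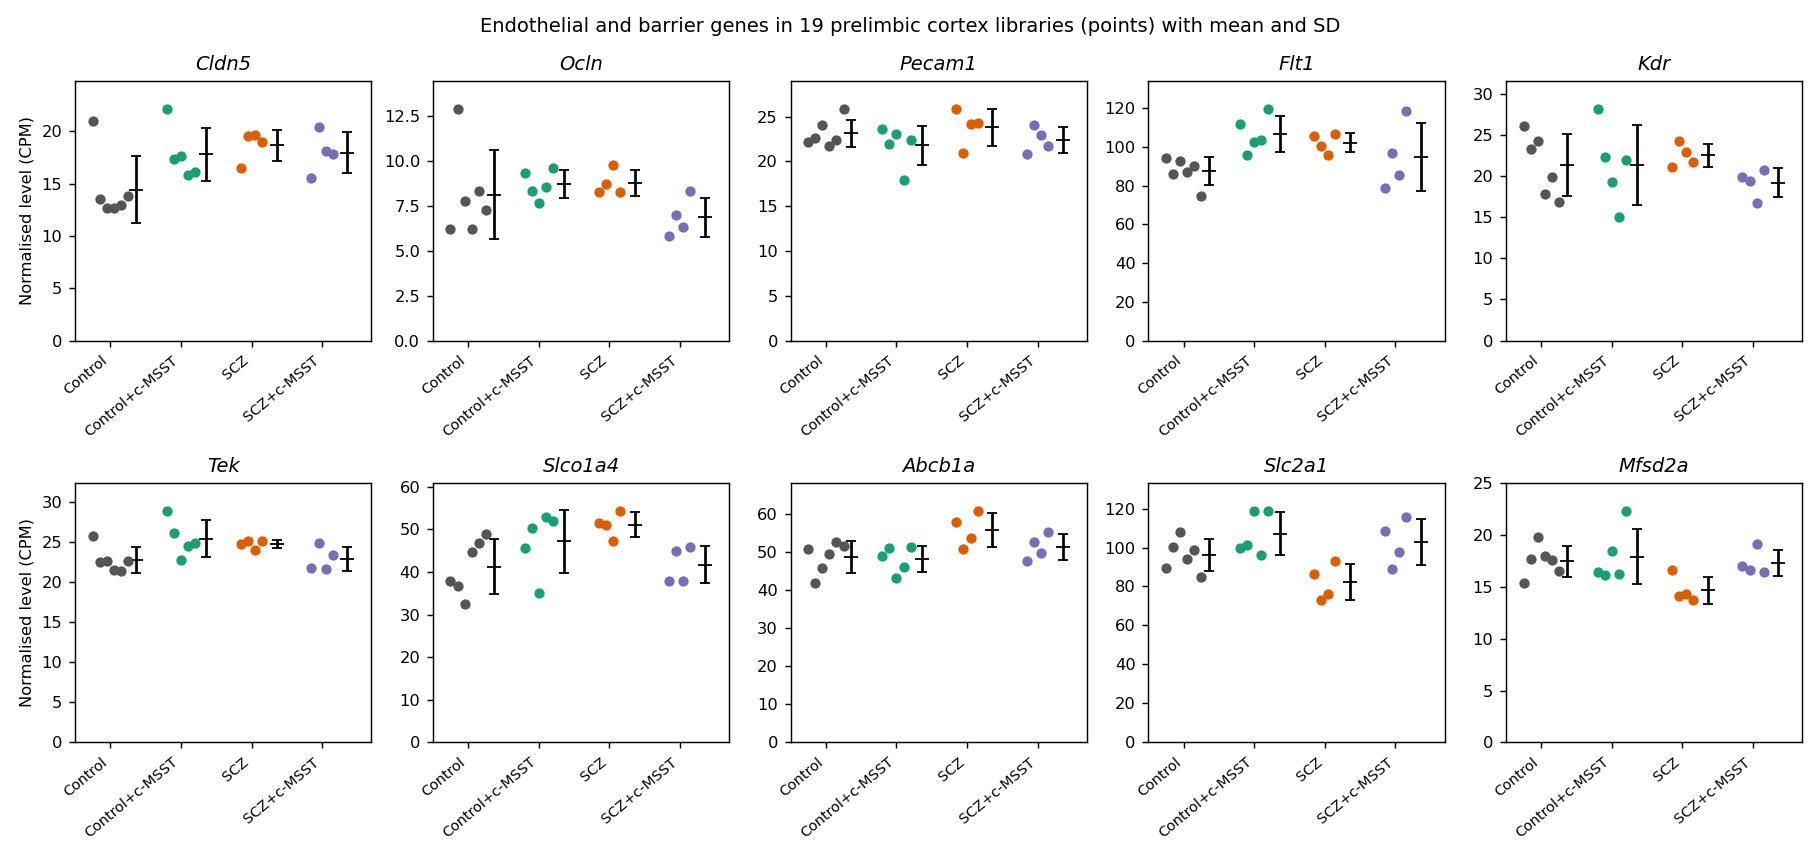
Normalised level (CPM, y axis from 0) of each of the 10 genes in the 19 libraries, one point a library, by group; the dash and bars beside the points are the group mean and SD. Flt1 lies between 74.7 and 94.2 CPM in Control and between 95.6 and 119.6 CPM in Control+c-MSST, while for Cldn5 a single Control library, at 20.97 CPM, stands above the other 5.

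Total counts ran from 50140626 to 66818266 in Control, 60577337 to 72866386 in Control+c-MSST, 65498768 to 82416746 in SCZ and 66828543 to 75090222 in SCZ+c-MSST. All 24 markers of an endothelial list, such as Cdh5 and Cd34, and all 6 neuron markers were tested and none was at 0 in all libraries of a group. Striatal neuron markers, 8 of 8 detected in each group, summed to 143 to 1509.8 in Control, 171 to 1218 in Control+c-MSST, 1404 to 1834 in SCZ and 858 to 1885 in SCZ+c-MSST CPM, and within Control and Control+c-MSST they varied widely between libraries. The medians of these sums were 549 in Control, 432 in Control+c-MSST, 1555 in SCZ and 1306 CPM in SCZ+c-MSST. The 8 choroid plexus markers summed to 9.83 to 1806 in Control, 11.04 to 18.7 in Control+c-MSST, 20.2 to 31.1 in SCZ and 13.7 to 21.1 in SCZ+c-MSST CPM. Ttr, the most abundant of them, reached 1607 CPM in Control replicate 2 and 149.6 CPM in Control replicate 3, against at most 7.78 CPM elsewhere. The 5 red blood cell markers summed to 107 to 259 CPM in Control and 126 to 216 CPM in Control+c-MSST, and the 7 oligodendrocyte markers to 2392 to 4161 in Control, 917 to 2889 in Control+c-MSST, 3367 to 3921 in SCZ and 2626 to 3470.2 in SCZ+c-MSST CPM. Microglia markers (7 of 7 detected) summed to 251 to 337 CPM in Control and 299 to 329 CPM in SCZ, and the 9 fibroblast and meningeal markers to 85.3 to 224 and 89.5 to 113 CPM. The same results were also computed without Control replicates 2 and 3, and with the striatal marker score as a covariate, both chosen after the data had been seen.

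SCZ was set against Control to look at MK-801 without c-MSST. The tight junction gene Cldn5, the receptor Flt1 and the transporters Slco1a4 and Abcb1a were higher in SCZ. The nutrient transporters Slc2a1 and Mfsd2a were lower, and all 6 differed by 1.15- to 1.29-fold. No member passed the test: 0 of 10 had an adjusted p under 0.05 by edgeR's quasi-likelihood test, as did 0 (0%) of the 16417 genes tested. DESeq2 also called 0 of 10, against 238 genes that it called over all genes. At an unadjusted p under 0.05 stood 6 of 10 members (4 higher, 2 lower), against 13.5% of all genes tested (6.09% higher, 7.43% lower). With the striatal score as a covariate this count was 1 of 10 (Flt1), against 7.10% of all genes, and without Control replicates 2 and 3 it was 3 of 10 (Cldn5, Flt1 and Ocln), against 12.8%. Ranges of CPM did not overlap for 1 member, Flt1, against 1.60% of all genes in that direction. Over all 10 members the median log2 fold change was 0.11, with 8 positive and 2 negative, and over all genes tested it was 0.00047. Markers of other tissue differed here too. All 8 of 8 striatal markers had a positive log2 fold change (median 1.18), and 0 of 8 choroid plexus markers did (median -2.18). By edgeR 0 of these passed the adjusted p under 0.05, and 1 and 4 stood at an unadjusted p under 0.05. DESeq2 called Ttr. Beyond the 2 settings above, their part in the members' differences was not tested.

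In Control+c-MSST against Control, the comparison on c-MSST in saline mice, Flt1, Cldn5 and Tek were higher by 1.117- to 1.24-fold. Again 0 of 10 members passed edgeR's test, against 54 (0.329%) of the 16417 genes tested. DESeq2 called 0 of 10 as well, against 571 over all genes. An unadjusted p under 0.05 was found for 3 of 10 members, all higher, against 16.6% of all genes (7.86% higher), a share at which about 2 of 10 would stand there. The CPM ranges did not overlap for Flt1 alone, against 0.847% of all genes in that direction. The members' median was 0.13, with 7 positive and 3 negative, against -0.011 for all genes tested.

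SCZ+c-MSST against SCZ compares mice with and without c-MSST after MK-801. Slc2a1 and Mfsd2a were higher with c-MSST by 1.25- and 1.18-fold, and Slco1a4 was lower by 1.23-fold. By edgeR 0 of 10 members and 0 (0%) of 16417 genes passed, and DESeq2 called 0 of 10, against 62 over all genes. At an unadjusted p under 0.05 stood 3 of 10 members, against 7.56% of all genes. Ranges did not overlap for 2 of 10, Slco1a4 and Kdr, both lower with c-MSST, against 3.78% of all genes in that direction. The members' median was -0.11, with 2 positive and 8 negative, against -0.0088 for all genes. Markers of other cells differed here too. The 5 red blood cell markers summed to 133 to 153 CPM in SCZ and 189 to 1298 CPM in SCZ+c-MSST, without overlap. All 5 of 5 had a positive log2 fold change (median 1.85), but single markers were not high in every SCZ+c-MSST library. Hba-a1 stood at 185 CPM in replicate 5 and at most 0.030 CPM in replicates 2, 3 and 4. Hbb-bs stood at 545 and 114 CPM in replicates 2 and 3, and at 2.84 and 8.38 CPM in replicates 4 and 5. Within Control, Hba-a1 also ran from 0 to 80.3 CPM, and within Control+c-MSST from 0 to 70.7 CPM. The 5 markers include Hba-a1 with Hba-a2 and Hbb-bs with Hbb-bt. How the counting split reads between such related genes is not given, so the 5 are not independent. The 4 septal and medial forebrain markers summed to 27.5 to 86.7 CPM in SCZ and 22.4 to 28.2 CPM in SCZ+c-MSST, and 4 of 4 were negative (median -1.24). By edgeR 0 of these 9 passed the adjusted p under 0.05, 2 and 3 of them stood at an unadjusted p under 0.05, and DESeq2 called Hbb-bs and Zic2. Their part in the members' differences was not tested. This comparison shares the SCZ libraries with the comparison of SCZ with Control, and both comparisons with Control share the Control libraries.

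**Figure D2:**
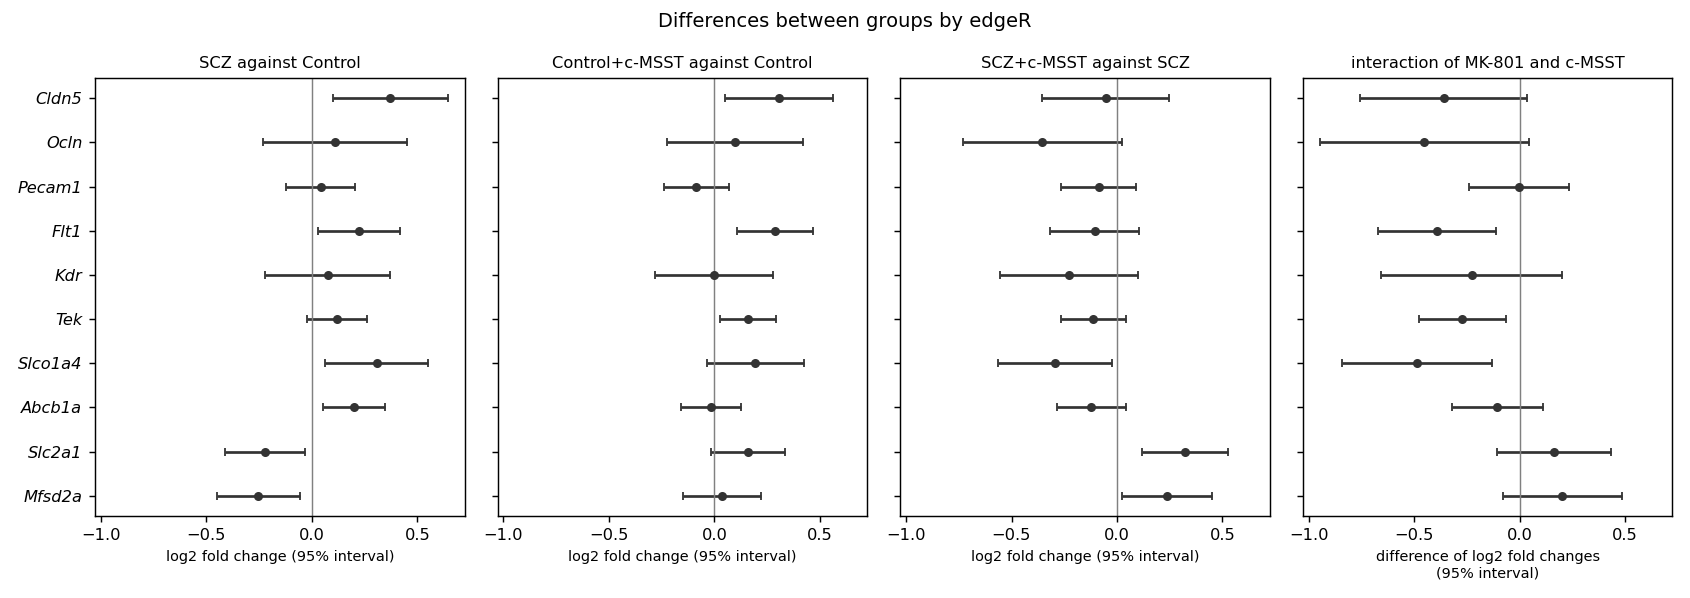
Log2 fold change (x axis) of each of the 10 genes by edgeR with its 95% interval, in 3 comparisons, and in the last panel the difference between the c-MSST effect in MK-801 mice and that in saline mice. In SCZ against Control, Cldn5 stands at 0.37 and Mfsd2a at -0.25; intervals that leave out 0 are not adjusted for the number of genes tested.

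Among the junction and adhesion genes, Cldn5 encodes claudin-5, the main sealing claudin of brain endothelium. It is a gene of chr16:18776847-18778262 on the plus strand (GRCm38, GENCODE M21). Values here and below follow the order of the labels' replicate numbers. In Control, Cldn5 stood at 20.97, 13.5, 12.7, 12.6, 12.9 and 13.9 CPM, and in Control+c-MSST at 22.2, 17.4, 17.7, 15.9 and 16.1 CPM. In SCZ it stood at 16.5, 19.6, 19.7 and 18.9 CPM, and in SCZ+c-MSST at 15.5, 20.4, 18.1 and 17.9 CPM. Control replicate 1 was far above the other 5 Control libraries, which spanned 12.6 to 13.9 CPM and lay below every library of the other 3 groups. With replicate 1, Control overlaps all 3 groups. Group means were 14.4 ± 3.24 CPM (SD, n = 6), 17.8 ± 2.53 CPM (SD, n = 5), 18.7 ± 1.49 CPM (SD, n = 4) and 17.99 ± 1.99 CPM (SD, n = 4) for Control, Control+c-MSST, SCZ and SCZ+c-MSST. By edgeR the log2 fold change was 0.37 (adjusted p = 0.235, s.e. 0.13) in SCZ against Control and 0.31 (adjusted p = 0.224, s.e. 0.12) in Control+c-MSST against Control. By edgeR without Control replicate 1 these became 0.51 (adjusted p = 0.178, s.e. 0.10) and 0.44 (adjusted p = 0.0466, s.e. 0.088). Of the 19 libraries left out in turn only this one brought a member past the test. Genes called over all genes tested in Control+c-MSST against Control ran from 0 to 314 over these 19 settings. Without Control+c-MSST replicate 1, the highest of its group, the second log2 fold change fell to 0.22. SCZ+c-MSST and SCZ differed by -0.053 (adjusted p = 0.964, s.e. 0.14) on the log2 scale.

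Ocln encodes occludin, a membrane protein of tight junctions that choroid plexus epithelium also makes; the gene lies at chr13:100496507-100552718 on the minus strand. Ocln took the values 6.24, 12.9, 7.81, 6.23, 8.35 and 7.26 CPM in the Control libraries and 9.32, 8.35, 7.67, 8.57 and 9.62 CPM in those of Control+c-MSST. SCZ libraries gave 8.29, 8.74, 9.798 and 8.31 CPM and SCZ+c-MSST libraries 5.85, 6.97, 6.32 and 8.33 CPM. Control replicate 2, the library with the highest Ttr, was the highest of all 19, while the other 5 Control libraries spanned 6.23 to 8.35 CPM. SCZ+c-MSST held the lowest library and overlapped SCZ at its upper end. The log2 fold change by edgeR was 0.11 (adjusted p = 0.826, s.e. 0.16) in SCZ against Control, 0.097 (adjusted p = 0.813, s.e. 0.15) in Control+c-MSST against Control and -0.35 (adjusted p = 0.682, s.e. 0.18) in SCZ+c-MSST against SCZ. Without Control replicates 2 and 3 the first was 0.32 (adjusted p = 0.304, s.e. 0.12) and the second 0.31 (adjusted p = 0.227, s.e. 0.12).

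Pecam1 encodes the adhesion molecule CD31 of endothelial contacts and lies at chr11:106654217-106750628 on the minus strand. Control libraries gave 22.1, 22.6, 24.01, 21.7, 22.4 and 25.9 CPM for Pecam1, and Control+c-MSST libraries 23.6, 21.9, 23.04, 17.98 and 22.4 CPM. SCZ libraries had 25.8, 20.9, 24.2 and 24.3 CPM, with 20.8, 24.1, 22.9 and 21.8 CPM in SCZ+c-MSST. The 4 groups overlapped broadly, and the lowest library was Control+c-MSST replicate 6. Differences by edgeR were 0.041 (s.e. 0.078) in SCZ against Control, -0.086 (s.e. 0.074) in Control+c-MSST against Control and -0.087 (s.e. 0.086) on the log2 scale in SCZ+c-MSST against SCZ. The first had a 95% interval of -0.12 to 0.21.

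Of the receptors of vessel growth, Flt1 encodes VEGF receptor 1, which binds the growth factor and limits signalling through the second receptor. The gene spans chr5:147561604-147726011 on the minus strand, with the promoter shown above. In Control, Flt1 stood at 94.2, 85.9, 92.9, 87.2, 89.9 and 74.7 CPM, and in Control+c-MSST at 112, 95.6, 103, 103 and 119.6 CPM. In SCZ it stood at 105, 100.5, 95.9 and 107 CPM, and in SCZ+c-MSST at 78.5, 96.9, 85.5 and 118 CPM. All Control libraries were lower than every Control+c-MSST and every SCZ library. SCZ+c-MSST was spread widely and overlapped the other groups, with replicate 5 highest. Flt1 averaged 87.5 ± 7.02 CPM (SD, n = 6) in Control, 107 ± 9.26 CPM (SD, n = 5) in Control+c-MSST, 102 ± 4.902 CPM (SD, n = 4) in SCZ and 94.8 ± 17.5 CPM (SD, n = 4) in SCZ+c-MSST. By edgeR the log2 fold change was 0.22 (adjusted p = 0.293, s.e. 0.092) in SCZ against Control, and 0.29 (adjusted p = 0.117, s.e. 0.086) in Control+c-MSST against Control. It was -0.11 (adjusted p = 0.844, s.e. 0.10) in SCZ+c-MSST against SCZ. In SCZ against Control it was 0.24 (adjusted p = 0.699, s.e. 0.11) with the striatal score as a covariate.

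Kdr encodes VEGF receptor 2, the main signalling receptor for the growth factor, at chr5:75932827-75978458 on the minus strand. Kdr took the values 26.1, 23.3, 24.2, 17.8, 19.9 and 16.8 CPM in the Control libraries and 28.1, 22.3, 19.3, 14.97 and 21.9 CPM in those of Control+c-MSST. SCZ libraries gave 21.1, 24.3, 22.9 and 21.7 CPM and SCZ+c-MSST libraries 19.9, 19.4, 16.7 and 20.8 CPM. SCZ libraries were close to each other and lay above all SCZ+c-MSST libraries, while Control and Control+c-MSST were spread over the ranges of both. The log2 difference of SCZ+c-MSST from SCZ was -0.23 (adjusted p = 0.774, s.e. 0.16) by edgeR. It was 0.075 (s.e. 0.14) in SCZ against Control and -0.0015 (s.e. 0.13) in Control+c-MSST against Control, smaller than their standard errors.

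Tek encodes TIE2, the angiopoietin receptor that steadies the vessel wall, at chr4:94739289-94874976 on the plus strand. Control libraries gave 25.7, 22.5, 22.6, 21.5, 21.4 and 22.7 CPM for Tek, and Control+c-MSST libraries 28.9, 26.1, 22.7, 24.5 and 24.8 CPM. SCZ libraries had 24.7, 25.1, 23.99 and 25.1 CPM, with 21.7, 24.9, 21.6 and 23.4 CPM in SCZ+c-MSST. Control replicate 1 again stood above the other 5 Control libraries, and Control+c-MSST replicate 1 was the highest of all. Tek varied least within groups of the 10 members, with a pooled SD of 0.098 on the log2 scale. The members' median of that SD was 0.150, and it was 0.132 for the 11728 genes with a mean of at least 5 CPM. By edgeR the log2 fold change of Tek was 0.12 (adjusted p = 0.455, s.e. 0.068) in SCZ against Control, 0.16 (adjusted p = 0.221, s.e. 0.064) in Control+c-MSST against Control and -0.11 (adjusted p = 0.769, s.e. 0.074) in SCZ+c-MSST against SCZ.

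Among the transporters, Slco1a4 encodes an organic anion transporter that moves steroid conjugates and drugs across brain endothelium. It lies at chr6:141805440-141856199 on the minus strand, with the promoter shown above, and 1.61% of its 50-base words are shared with other genes, among them Slco1a1, Slco1a5 and Slco1a6. In Control, Slco1a4 stood at 37.98, 36.7, 32.6, 44.6, 46.9 and 48.8 CPM, and in Control+c-MSST at 45.6, 50.4, 35.1, 52.9 and 51.9 CPM. In SCZ it stood at 51.4, 51.1, 47.3 and 54.4 CPM, and in SCZ+c-MSST at 37.9, 44.9, 37.9 and 45.9 CPM. Every SCZ library was above every SCZ+c-MSST library, while Control reached up to 48.8 CPM and Control+c-MSST up to 52.9 CPM, into the range of SCZ. Slco1a4 averaged 41.3 ± 6.43 CPM (SD, n = 6) in Control, 51.1 ± 2.93 CPM (SD, n = 4) in SCZ and 41.6 ± 4.34 CPM (SD, n = 4) in SCZ+c-MSST. By edgeR its log2 fold change was 0.31 (adjusted p = 0.263, s.e. 0.12) in SCZ against Control and -0.29 (adjusted p = 0.619, s.e. 0.13) in SCZ+c-MSST against SCZ. In Control+c-MSST against Control it was 0.19 (adjusted p = 0.398, s.e. 0.11). Without Control replicates 2 and 3 the first was 0.20 (adjusted p = 0.483, s.e. 0.11), over 1.5 times smaller.

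Abcb1a encodes P-glycoprotein, the efflux pump that keeps many drugs out of the brain, at chr5:8660077-8748575 on the plus strand. Its near copies Abcb1b and Abcb4 share 17.6% of its 50-base words and a gene on the opposite strand covers 553 of its exonic bases, so its level is uncertain where the counting could split such reads. Abcb1b itself had group means from 4.89 CPM in Control+c-MSST to 5.95 CPM in Control. Abcb1a took the values 50.7, 41.8, 45.7, 49.4, 52.6 and 51.7 CPM in the Control libraries and 48.9, 51.1, 43.1, 46.2 and 51.2 CPM in those of Control+c-MSST. SCZ libraries gave 57.9, 50.8, 53.8 and 60.9 CPM and SCZ+c-MSST libraries 47.5, 52.6, 49.8 and 55.3 CPM. SCZ had the 2 highest libraries, replicates 1 and 5, and overlapped Control and SCZ+c-MSST at its lower end. Log2 fold changes by edgeR were 0.20 (adjusted p = 0.239, s.e. 0.071) in SCZ against Control, -0.016 (adjusted p = 0.939, s.e. 0.067) in Control+c-MSST against Control and -0.12 (adjusted p = 0.761, s.e. 0.078) in SCZ+c-MSST against SCZ. Without Control replicates 2 and 3 the first was 0.13 (adjusted p = 0.440, s.e. 0.067), and with the striatal score as a covariate it was 0.12 (adjusted p = 0.763, s.e. 0.078), both over 1.5 times smaller.

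Slc2a1 encodes GLUT1, the glucose transporter of brain endothelium, which astrocytes also make. The gene spans chr4:119108711-119137983 on the plus strand, and an antisense gene covers 2149 of its exonic bases; the sources used here do not give whether reads were counted by strand. Control libraries gave 89.4, 100.2, 108, 94.3, 98.7 and 84.97 CPM for Slc2a1, and Control+c-MSST libraries 99.6, 101, 119, 96.4 and 119 CPM. SCZ libraries had 86.2, 73.1, 76.3 and 93.2 CPM, with 108, 89.1, 97.8 and 116 CPM in SCZ+c-MSST. SCZ held the 2 lowest libraries, replicates 2 and 3. The other 2 SCZ libraries lay within the range of Control, and only 1 of them, replicate 5 at 93.2 CPM, overlapped SCZ+c-MSST. Control+c-MSST reached the highest levels, with 2 libraries close to 119 CPM. Means were 95.9 ± 8.23 CPM (SD, n = 6) in Control, 107 ± 11.1 CPM (SD, n = 5) in Control+c-MSST, 82.2 ± 9.22 CPM (SD, n = 4) in SCZ and 103 ± 11.7 CPM (SD, n = 4) in SCZ+c-MSST. Against Control, SCZ differed by a log2 fold change of -0.22 (adjusted p = 0.286, s.e. 0.090) by edgeR. This difference had no unadjusted p under 0.05 with the striatal score as a covariate, nor without Control replicates 2 and 3. SCZ+c-MSST exceeded SCZ by 0.32 (adjusted p = 0.421, s.e. 0.098), and Control+c-MSST exceeded Control by 0.16 (adjusted p = 0.356, s.e. 0.083). The 7 astrocyte markers summed to 5719 to 7951 CPM in Control, 5380.2 to 5648 CPM in SCZ and 5579.6 to 5939 CPM in SCZ+c-MSST, and their part in the level of Slc2a1 was not tested.

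Mfsd2a encodes the carrier of lipid-bound docosahexaenoic acid, which also holds back vesicle transport across brain endothelium, at chr4:122946850-122961188 on the minus strand. In Control, Mfsd2a stood at 15.4, 17.6, 19.8, 17.98, 17.6 and 16.6 CPM, and in Control+c-MSST at 16.4, 16.2, 18.4, 16.2 and 22.4 CPM. In SCZ it stood at 16.6, 14.1, 14.3 and 13.8 CPM, and in SCZ+c-MSST at 17.04, 16.7, 19.1 and 16.4 CPM. SCZ replicates 2, 3 and 5 were lower than all 15 libraries of the other groups, and SCZ replicate 1 lay within their range. Mfsd2a averaged 17.5 ± 1.49 CPM (SD, n = 6) in Control, 17.9 ± 2.65 CPM (SD, n = 5) in Control+c-MSST, 14.7 ± 1.29 CPM (SD, n = 4) in SCZ and 17.3 ± 1.23 CPM (SD, n = 4) in SCZ+c-MSST. By edgeR the log2 fold change was -0.25 (adjusted p = 0.257, s.e. 0.094) in SCZ against Control, 0.035 (adjusted p = 0.889, s.e. 0.088) in Control+c-MSST against Control and 0.24 (adjusted p = 0.614, s.e. 0.10) in SCZ+c-MSST against SCZ. Leaving out any 1 library kept the first between -0.32 and -0.21. By edgeR the first no longer had an unadjusted p under 0.05 with the striatal score as a covariate, nor without Control replicates 2 and 3.

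Whether c-MSST acted differently in MK-801 and in saline mice was asked by the interaction, in which from the c-MSST difference after MK-801 the one after saline was subtracted. It was negative for 8 of 10 members, and 0 of 10 passed an adjusted p under 0.05 by edgeR, as did 0 (0%) of all genes. DESeq2 called 0 of 10, against 40 over all genes. At an unadjusted p under 0.05 stood 3 of 10, Flt1, Slco1a4 and Tek, all negative, against 7.29% of all genes (3.39% negative). Flt1 had an interaction of -0.39 (adjusted p = 0.557, s.e. 0.13): its mean was higher with c-MSST in saline mice and lower with c-MSST in MK-801 mice. For Slco1a4 it was -0.49 (adjusted p = 0.588, s.e. 0.17) and for Tek -0.27 (adjusted p = 0.593, s.e. 0.098) by edgeR. Slc2a1 and Mfsd2a had positive values of 0.16 (s.e. 0.13) and 0.20 (s.e. 0.13).

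Averaged over mice with and without c-MSST, the MK-801 difference was called for 0 of 10 members by edgeR and by DESeq2. Over all genes edgeR called 0 (0%) and DESeq2 571. At an unadjusted p under 0.05 it stood for 3 of 10, against 16.6% of all genes: by edgeR Abcb1a stood at 0.15 (adjusted p = 0.163, s.e. 0.051), Mfsd2a at -0.15 (adjusted p = 0.265, s.e. 0.068) and Slc2a1 at -0.14 (adjusted p = 0.282, s.e. 0.064). With the striatal score as a covariate, none of these 3 had an unadjusted p under 0.05, and their values were 0.074, -0.087 and -0.077. The c-MSST difference averaged over both backgrounds was 0.24 (adjusted p = 0.103, s.e. 0.064) for Slc2a1 by edgeR, the only member at an unadjusted p under 0.05, against 15.8% of all genes. By edgeR 0 of 10 members passed, against 2 genes (0.0122%) of all tested. DESeq2 called Slc2a1 at 0.24 (adjusted p = 0.0251, s.e. 0.069), 1 of 458 genes it called there. Slc2a1 stood at 0.27 (adjusted p = 0.0867, s.e. 0.065) by edgeR without Control replicates 2 and 3.

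Levels were also set against 24 other endothelial genes by subtracting their mean log2 CPM in each library, a measure added after the levels had been seen. This mean was 3.53 ± 0.060 (SD, n = 6) in Control, 3.61 ± 0.067 (n = 5) in Control+c-MSST, 3.6998 ± 0.10 (n = 4) in SCZ and 3.52 ± 0.13 (n = 4) in SCZ+c-MSST, so it was itself highest in SCZ. On this scale Slc2a1 stood at 2.73, 2.61, 2.57 and 2.71 in the SCZ libraries and at 3.26, 2.89, 3.26 and 3.20 in those of SCZ+c-MSST. In Control it was 3.06, 3.12, 3.22, 3.03, 3.02 and 2.84, and in Control+c-MSST 3.00, 2.97, 3.31, 3.08 and 3.29, so all SCZ libraries lay below all 15 others. The share of all genes with SCZ below all other groups on this scale was not counted. Mfsd2a stood at 0.35, 0.24, 0.15 and -0.045 in SCZ and 0.59, 0.48, 0.91 and 0.38 in SCZ+c-MSST. It was 0.52, 0.62, 0.78, 0.64, 0.54 and 0.48 in Control and 0.40, 0.32, 0.63, 0.51 and 0.88 in Control+c-MSST, so SCZ lay below Control and SCZ+c-MSST and overlapped Control+c-MSST. These 2 of 10 members were below Control without overlap, against 7.52% of the 16393 genes tested outside the 24, the members included, on the same scale. The same 2 were above SCZ in SCZ+c-MSST without overlap, against 12.6% of those genes, and at these shares many other genes show the same order. The other 8 members overlapped in both comparisons on this scale, Flt1 among them.

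**Figure D3:**
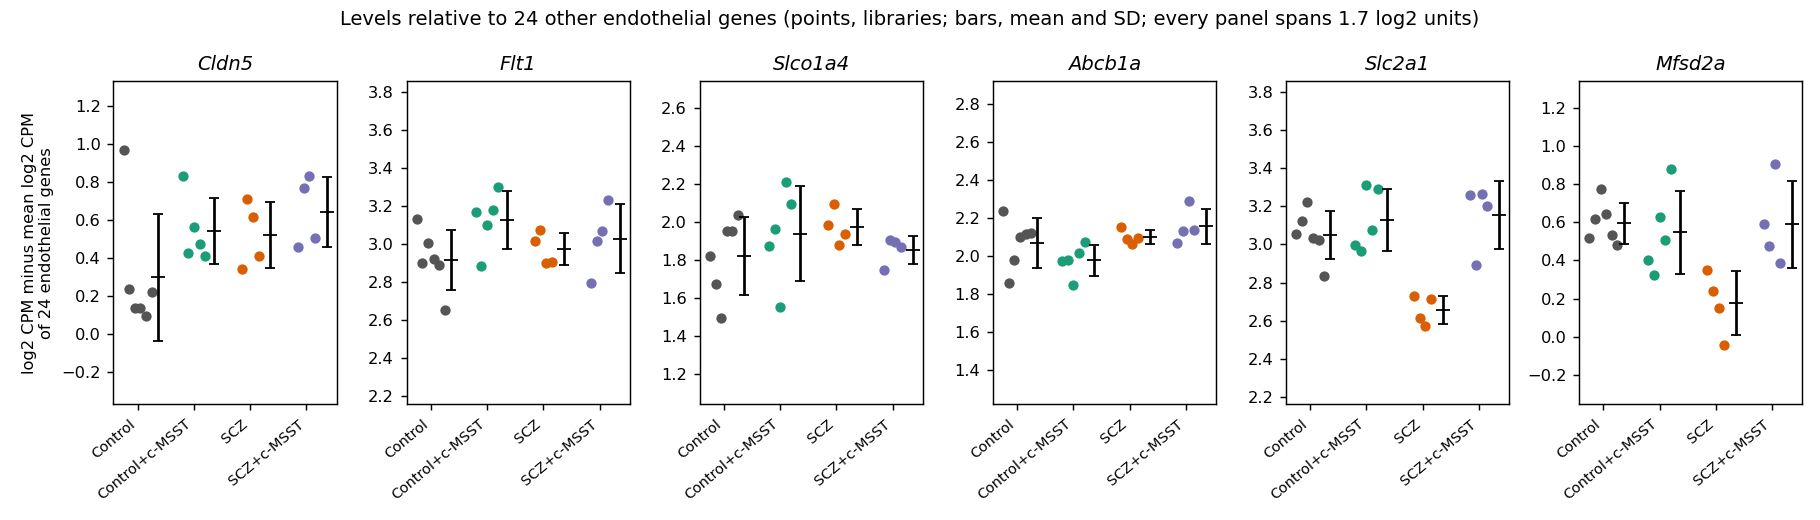
Level of 6 genes relative to 24 other endothelial genes (log2 CPM minus their mean log2 CPM, y axis), one point a library, with the group mean and SD beside the points. For Slc2a1 the 4 SCZ libraries lie between 2.57 and 2.73, below every library of the other groups. The mean that was subtracted was itself highest in SCZ.

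Variation shared between members was measured as the correlation of their deviations from the group means in log2 CPM over the 19 libraries. Of the 45 pairs, 31 were positive, the median r was 0.15, and 0 pairs had an adjusted p under 0.05 (two-sided permutations within groups). Cldn5 and Tek had Pearson's r = 0.77 (permutation p = 0.00415, adjusted p = 0.0934) and Spearman's rho = 0.56 (permutation p = 0.0167, adjusted p = 0.221), and r was 0.47 without the 2 libraries farthest in Cldn5. Slco1a4 and Abcb1a had Pearson's r = 0.71 (permutation p = 0.00178, adjusted p = 0.0801) and Spearman's rho = 0.69 (permutation p = 0.00241, adjusted p = 0.108), and r stayed at 0.65 without the 2 farthest in Slco1a4. Kdr and Tek had Pearson's r = 0.64 (permutation p = 0.0204, adjusted p = 0.294) and Spearman's rho = 0.61 (permutation p = 0.0147, adjusted p = 0.221), and r was 0.56 without the 2 farthest in Kdr. The nutrient transporters Slc2a1 and Mfsd2a had Pearson's r = 0.51 (permutation p = 0.0392, adjusted p = 0.294) and Spearman's rho = 0.46 (permutation p = 0.0540, adjusted p = 0.347), and r was 0.72 without the 2 farthest in Slc2a1. Cldn5 and Mfsd2a had the lowest r, with Pearson's r = -0.53 (permutation p = 0.0350, adjusted p = 0.294) and Spearman's rho = -0.51 (permutation p = 0.0245, adjusted p = 0.221), and r was -0.38 without 2 libraries. Tek with Cldn5 and with Kdr, and Slco1a4 with Abcb1a were the pairs with the highest r, and none passed the adjustment.

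**Figure D4:**
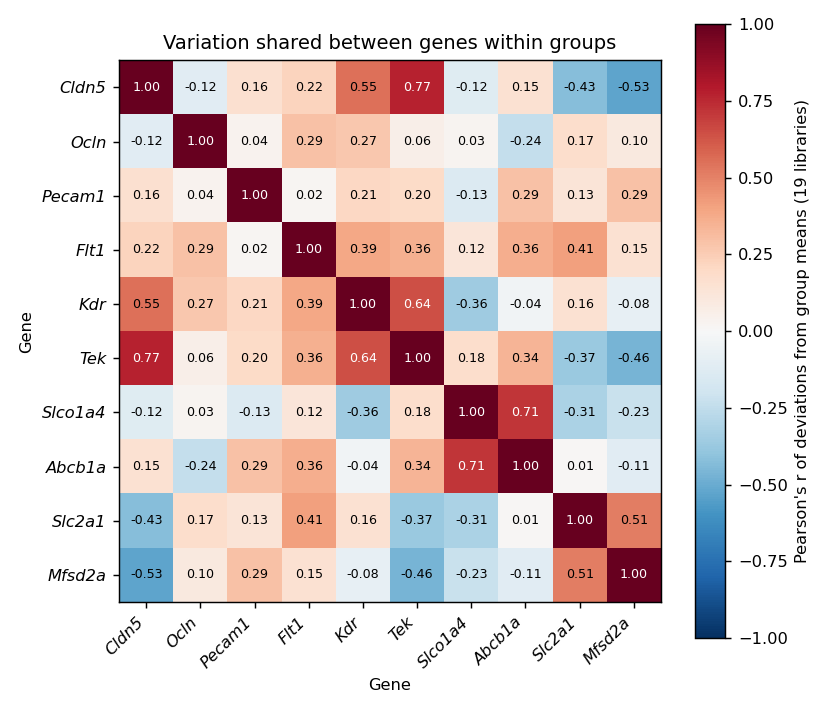
Pearson's r between each pair of the 10 genes (both axes) of their deviations from group means in log2 CPM over 19 libraries, with red positive and blue negative. Cldn5 and Tek have the highest r, 0.77, and Cldn5 and Mfsd2a the lowest, -0.53.

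The gene whose deviations were most like the mean of the 10 members, among 13722 genes with a mean of at least 1 CPM, was Epas1 (r = 0.85 over 19 libraries), which encodes HIF-2 alpha, a hypoxia factor abundant in endothelium. Next came Fabp5 (0.80), a fatty acid carrier, and Chst7 (0.80). Foxn3, Irf3, Alyref, Ebp and Fam186b followed, with r from 0.76 to 0.73. Of 24 other endothelial genes 19 had a positive r with the same mean, with a median of 0.20, against 49.7% positive and a median of -0.0021 over all genes ranked. Sox7 (0.61), Itm2a (0.60) and Cdh5 (0.55) were the highest of the 24. These correlations are descriptions and share the libraries and their depth.

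Genes of the surrounding pathways were read from 8 lists, and by edgeR 0 genes of these lists passed an adjusted p under 0.05 in these 3 comparisons or in the interaction. DESeq2 called Itm2a and Slc6a6 in SCZ against Control, and Sox18 in SCZ+c-MSST against SCZ. Genes called by DESeq2 in Control+c-MSST against Control included Esam, Flt4 and Notch3, and it called 0 genes of these 8 lists in the interaction. In the average MK-801 effect it called Slc6a6, Cldn12, Dll4, Tspan12 and Wnt7a, and in the average c-MSST effect its calls included Esam. All of these were named after their values were seen, apart from Slc6a6. Counts at an unadjusted p under 0.05 are given below for each of the 8 lists in the 3 comparisons. The shares over all genes tested were 13.5% in SCZ against Control, 16.6% in Control+c-MSST against Control and 7.56% in SCZ+c-MSST against SCZ. List counts near these shares are what genes at large show. Of the 24 endothelial identity genes, 18 of 24 were positive in SCZ against Control (median 0.17), 16 of 24 in Control+c-MSST against Control (0.054) and 7 of 24 in SCZ+c-MSST against SCZ (-0.13), with 8, 5 and 8 at an unadjusted p under 0.05. The most abundant were Cd34, a sialomucin of endothelial surfaces, and Adgrf5, an adhesion receptor. Cd34 averaged 71.2 ± 16.6 CPM in Control and 55.6 ± 9.81 CPM in SCZ, which is -0.36 (adjusted p = 0.336, s.e. 0.16) on the log2 scale by edgeR. Adgrf5 averaged 46.2 ± 5.45 CPM in Control, 56.4 ± 4.27 CPM in SCZ and 44.99 ± 5.74 CPM in SCZ+c-MSST. Its log2 fold change was 0.29 (adjusted p = 0.207, s.e. 0.094) in SCZ against Control and -0.33 (adjusted p = 0.432, s.e. 0.10) in SCZ+c-MSST against SCZ by edgeR, so the 2 genes differed in opposite directions. In the interaction 19 of 24 were negative (median -0.21, against 0.0015 for all genes).

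Other barrier transporters were 14 genes, of which 10 of 14 were positive in SCZ against Control (median 0.054), 9 of 14 in Control+c-MSST against Control (0.045) and 4 of 14 in SCZ+c-MSST against SCZ (-0.13), with 2, 4 and 4 at an unadjusted p under 0.05. The most abundant were Slc6a6, the taurine transporter, and Tfrc, the transferrin receptor that brings iron across the endothelium. Slc6a6 averaged 229.9 ± 9.25 in Control, 249.7 ± 11.5 in Control+c-MSST, 261 ± 9.16 in SCZ and 269 ± 12.5 CPM in SCZ+c-MSST. Its log2 fold change in SCZ against Control was 0.18 (adjusted p = 0.148, s.e. 0.044) by edgeR. Tfrc averaged 101 ± 18.3 CPM in Control and 119 ± 6.77 CPM in SCZ. Of 11 other junction genes, 6 of 11 were positive in SCZ against Control (median 0.0010), 2 of 11 in Control+c-MSST against Control (-0.11) and 3 of 11 in SCZ+c-MSST against SCZ (-0.11), with 2, 3 and 1 at an unadjusted p under 0.05. Their most abundant, the scaffold gene Tjp1 and the catenin gene Ctnnd1, averaged 236 and 173 CPM over the 19 libraries and are made in many cell types. In SCZ against Control Tjp1 stood at -0.079 (adjusted p = 0.596, s.e. 0.059) and Ctnnd1 at -0.070 (adjusted p = 0.747, s.e. 0.080) by edgeR.

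Of 16 ligands and partners of the growth factor and angiopoietin receptors, 11 of 16 were positive in SCZ against Control (median 0.10), 10 of 16 in Control+c-MSST against Control (0.031) and 5 of 16 in SCZ+c-MSST against SCZ (-0.047), with 6, 4 and 2 at an unadjusted p under 0.05. The ligand Vegfa itself stood at separate levels within groups, from 29.2 to 35.6 CPM in Control replicates 2 and 7, Control+c-MSST replicate 2 and SCZ replicates 3 and 5, and from 57.8 to 82.2 CPM in the other 14 libraries. Its SCZ libraries therefore stood at both levels, and Vegfa was named after its values were seen. Ptprb, the phosphatase that acts on TIE2, averaged 75.4 ± 7.99 CPM in Control and 77.5 ± 6.77 CPM in SCZ, and the coreceptor Nrp2 averaged 75.5 ± 27.4 and 83.6 ± 25.4 CPM. Both differences were smaller than the SD in Control. Of 15 genes of the Wnt and Norrin pathway, 11 of 15 were positive in SCZ against Control (median 0.13), 10 of 15 in Control+c-MSST against Control (0.095) and 5 of 15 in SCZ+c-MSST against SCZ (-0.037), with 4, 2 and 3 at an unadjusted p under 0.05. Lrp6, a coreceptor for Wnt ligands, averaged 143 ± 11.3 CPM in Control and 138 ± 5.18 CPM in SCZ. Axin2, a target that is switched on by Wnt signalling, averaged 45.8 ± 5.797 CPM and 45.4 ± 4.29 CPM there, which is -0.013 (adjusted p = 0.975, s.e. 0.090) on the log2 scale by edgeR.

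Genes of leaky, caveolar or activated endothelium were 11, of which Sele and Selp, adhesion molecules of inflamed vessels, did not pass the filter on low counts. Of the 9 tested, 5 of 9 were positive in SCZ against Control (median 0.032), 1 of 9 in Control+c-MSST against Control (-0.15) and 3 of 9 in SCZ+c-MSST against SCZ (-0.053), with 0, 1 and 0 at an unadjusted p under 0.05. Vcam1, an adhesion molecule of activated endothelium, averaged 26.8 ± 2.39 in Control, 22.9 ± 2.68 in Control+c-MSST, 27.4 ± 5.16 in SCZ and 23.8 ± 2.43 CPM in SCZ+c-MSST, and the caveolar gene Cav2 averaged 18.4 CPM over all libraries. Of 9 pericyte markers, 6 of 9 were positive in SCZ against Control (median 0.087), 6 of 9 in Control+c-MSST against Control (0.068) and 2 of 9 in SCZ+c-MSST against SCZ (-0.050), with 1, 2 and 0 at an unadjusted p under 0.05. Rgs5, the most abundant of them, averaged 105 ± 8.72 CPM in Control and 122 ± 7.79 CPM in Control+c-MSST, which is 0.23 (adjusted p = 0.140, s.e. 0.074) on the log2 scale by edgeR. Vtn, also made by pericytes, averaged 42.6 CPM over all libraries. Of 6 smooth muscle markers, 4 of 6 were positive in SCZ against Control (median 0.047), 1 of 6 in Control+c-MSST against Control (-0.074) and 0 of 6 in SCZ+c-MSST against SCZ (-0.34), with 0, 0 and 2 at an unadjusted p under 0.05. Mylk and Myh11, contractile genes, averaged 12.8 ± 1.31 and 12.2 ± 1.696 CPM in SCZ and 10.9 ± 1.19 and 9.44 ± 0.910 CPM in SCZ+c-MSST. The plot of list genes shows these medians beside the members.

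**Figure D5:**
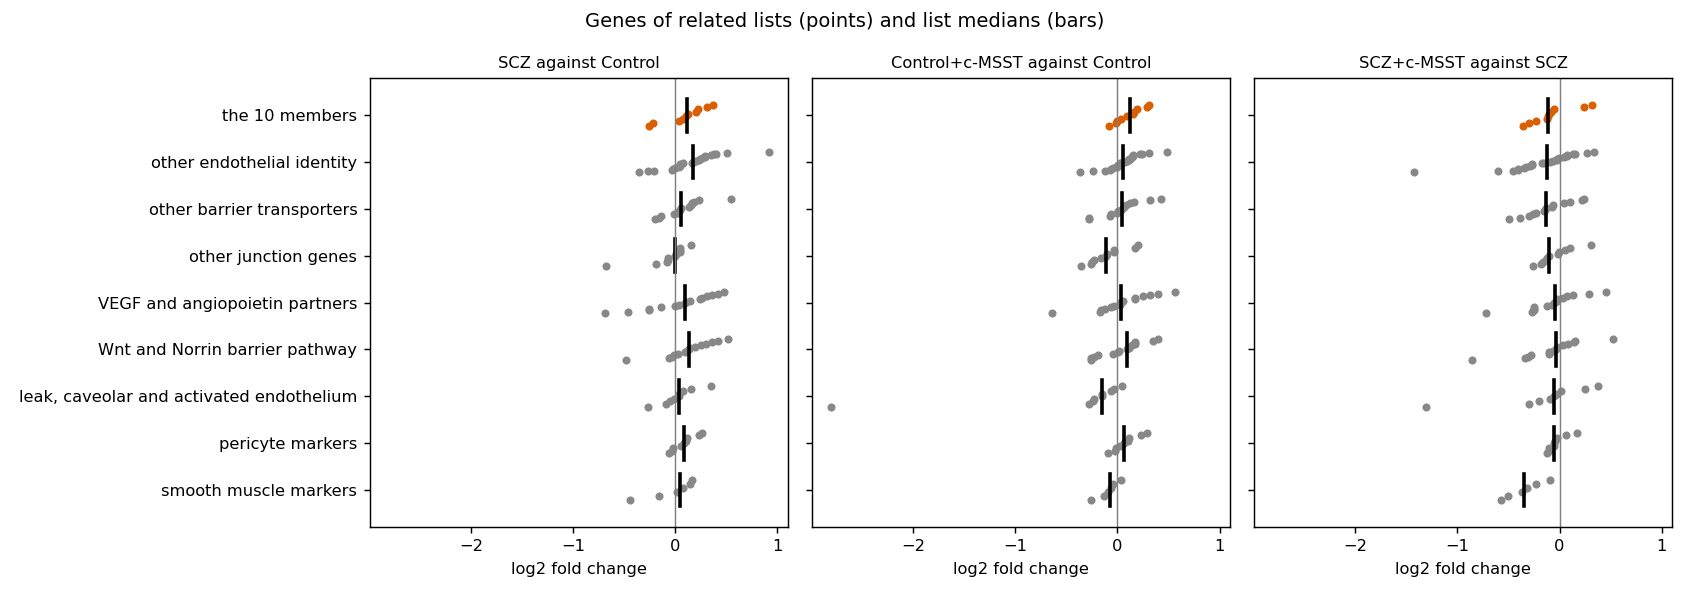
Log2 fold change (x axis) of each tested gene of 8 related lists (grey points) and of the 10 members (orange points) in 3 comparisons, with black bars for the list medians. In SCZ+c-MSST against SCZ all 6 smooth muscle markers lie below 0, with a median of -0.34.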

How the data were processed

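Per the submitters' processing notes, the authors used fastp 0.19.5, STAR 2.7.7a, Picard 2.18.29, StringTie 1.3.5 and the mm10 build, on total RNA libraries made with a stranded kit. The authors deposited estimated counts per gene, which were all whole numbers and were used as deposited, and FPKM values per gene, which are scaled to gene length and library size. The counting step, its use of strand and the annotation are not given in the sources used here. All 19 libraries entered 1 edgeR 4.0.16 quasi-likelihood fit (R 4.3.3) with a mean per group, filterByExpr on the 4 groups and TMM factors, which left 16417 of 20938 genes; p-values were adjusted by Benjamini-Hochberg over these, and 2327 genes had no count. The 6 contrasts were MK-801 without c-MSST, c-MSST in either background, both averaged effects and their interaction. DESeq2 1.42.0 on counts, and limma 3.58.1 on log2(FPKM + 1) and log2(FPKM + 0.1), with 20927 names matched, were alternatives, beside DESeq2 size factors, no filter, a replicate block and each library left out. Totals ran from 50140626 to 82416746 counts, and intervals are at 95%. With 4 to 6 libraries in a group, members' pooled SD within groups was 0.098 to 0.258 on the log2 scale, which limits precision.

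The script was tested on simulated counts. All members were named, together with the 2 most abundant genes of each list, the 8 genes best correlated with the members' mean (predicted names left out), and Vegfa; members and lists were chosen with earlier results of these data known. Levels relative to 24 endothelial genes, and the settings without Control replicates 2 and 3 and with the striatal marker score, were added after the data were seen. Correlations used log2 CPM with a prior count of 2 and 100000 permutations within groups, adjusted over 45 pairs. Promoters came from RefSeq (GRCm38.p6) and gene positions from GENCODE M21. Each library is taken as 1 mouse from the design text; the labels name no animals, so p-values measure the spread between these samples, which may be technical. No 2 libraries of a group were alike within sampling noise (chi-square per degree of freedom 29.7 to 115). All columns of both tables were mapped to samples by their names. The DESeq2 call of 1 gene of the lists is not reported here.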

Additional observations from a re-analysis of the deposited data

Results flagged for a closer look

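In 4 of 40 sets of a gene and a group, the highest library stood apart from the others by Dixon's criterion, which chance alone meets in about 2 of 40. Cldn5, the claudin of brain endothelium, stood at 20.97 CPM in Control replicate 1, where the other 5 Control libraries lay between 12.6 and 13.9 CPM. In Control+c-MSST replicate 1 Cldn5 stood at 22.2 CPM, above 15.9 to 17.7 CPM in the other 4. Tek, the angiopoietin receptor, was at 25.7 CPM in Control replicate 1, above 21.4 to 22.7 CPM in the other 5. Control replicate 1 had the lowest total of the 19 libraries (50140626 counts), and Control+c-MSST replicate 1 the lowest of its group (60577337). The part of sequencing depth in these levels was not tested. Ocln, the gene of occludin, stood at 12.9 CPM in Control replicate 2, above 6.23 to 8.35 CPM in the other 5, and this library also held 1607 CPM of the choroid plexus gene Ttr; its part in the level of Ocln was not tested.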

How the results depend on the processing

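No member passed the adjusted p under 0.05 in the planned edgeR fit, and members' log2 fold changes kept their sign and side of the threshold in 461 values from other settings (18 reversed, 1 newly past the threshold) and in 1109 from libraries left out in turn (30 reversed, 1 newly past it). Calls over all genes moved much more. With the DESeq2 Wald test 238 genes were called in SCZ against Control, 571 in Control+c-MSST against Control, 62 in SCZ+c-MSST against SCZ, 571 in the average MK-801 effect, 458 in the average c-MSST effect and 40 in the interaction, where edgeR had 0, 54, 0, 0, 2 and 0. DESeq2 called 1 member in the average c-MSST effect (Slc2a1, 0.24). With limma on log2(FPKM + 1) the counts were 1, 259 and 2 in the first 3 comparisons and 0 in the average c-MSST effect, and on log2(FPKM + 0.1) they were 1, 250, 2 and 0. Of the genes called in Control+c-MSST against Control, 70.4% were higher by edgeR, 48.9% by DESeq2, 97.3% and 96.4% on the FPKM scales, 62.5% without Control replicates 2 and 3 and 60.6% with the striatal marker score. Those last 2 settings, chosen after seeing the data, called 16 and 188 genes there, and 1 gene in the interaction and 1 in the average MK-801 effect. On log2(FPKM + 0.1) the median of all genes in the interaction was -0.125, against 0.0015 by edgeR on counts.

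Members whose difference was near 0 changed sign. Pecam1 in the interaction was 0.0038 by DESeq2, 0.0034 with DESeq2 size factors and 0.0041 with the striatal score. Kdr and Abcb1a in Control+c-MSST against Control were 0.050 and 0.056 on log2(FPKM + 1), and both 0.063 on log2(FPKM + 0.1); Flt1 in the average MK-801 effect was -0.0072 and -0.0073. Without Control replicates 2 and 3, Kdr was 0.083 in Control+c-MSST against Control and 0.0042 in the average MK-801 effect, and Ocln was 0.068 in the latter with the striatal score. The cause of these changes was not tested.

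Over 19 pairs with the same replicate number in 2 groups, the correlation of deviations ran from -0.0958 to 0.139, with 1 over 0.1. Of 18 libraries, 2 correlated best with their own number. No sign that the numbers pair the samples was seen, but weak correlations cannot exclude it. The labels do not say what the numbers mark. With the replicate block 0 genes were called in Control+c-MSST against Control and 0 in the average c-MSST effect, and no member was called. Under the block Kdr was -0.018 in SCZ against Control, 0.15 in Control+c-MSST against Control and 0.011 in the average c-MSST effect, Abcb1a 0.018 in Control+c-MSST against Control, Cldn5 0.015 in SCZ+c-MSST against SCZ and Flt1 -0.020 in the average MK-801 effect.

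Leaving out each library in turn, genes called ran from 0 to 94 in SCZ against Control, 0 to 314 in Control+c-MSST against Control, 0 to 2 in SCZ+c-MSST against SCZ, 0 to 286 in the average MK-801 effect, 0 to 223 in the average c-MSST effect and 0 to 1 in the interaction. The highest counts came without Control replicate 4 (SCZ against Control and the MK-801 average) and without Control replicate 7 (Control+c-MSST against Control and the c-MSST average), and 17 of the 19 moved the count in Control+c-MSST against Control by over 1.5 times. Members called there ran from 0 to 1, the 1 being Cldn5 without Control replicate 1. Log2 fold changes that changed sign or call ran from -0.00022 to 0.098 for Pecam1 in SCZ against Control, 0.22 to 0.44 for Cldn5 in Control+c-MSST against Control, -0.12 to 0.10 for Kdr in Control+c-MSST against Control, -0.056 to 0.020 for Abcb1a in Control+c-MSST against Control, -0.058 to 0.074 for Mfsd2a in Control+c-MSST against Control, -0.12 to 0.0091 for Cldn5 in SCZ+c-MSST against SCZ, -0.035 to 0.067 for Flt1 in the average MK-801 effect, -0.091 to 0.021 for Kdr in the average MK-801 effect, -0.037 to 0.0095 for Tek in the average MK-801 effect, -0.0026 to 0.042 for Tek in the average c-MSST effect and -0.063 to 0.040 for Pecam1 in the interaction.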
